A study of Mus musculus with 6 samples.

Results

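The ErbB receptors and the growth factors of the EGF family were followed in 410.4 cells, a mouse mammary carcinoma line, grown with or without neutrophil extracellular traps (NETs). The set was given by symbol and holds 10 of the 55809 gene symbols in the deposited table: the receptor genes Egfr, Erbb2 and Erbb3, the ligand genes Areg, Ereg, Hbegf, Tgfa, Btc and Nrg1, and Errfi1, an inducible inhibitor of the receptors. All 10 symbols were found, and 9 had enough counts to be tested. Messenger RNA was sequenced from 3 libraries of cells kept for 2 days in medium conditioned with NETs, the DNA webs that neutrophils cast out, and from 3 libraries of cells kept as long in plain medium. The titles call the second group Veh, and both media were DMEM with 0.5% serum, so no group was in full serum. One cell line stands behind all 6 libraries, and no source used here says whether the replicates were separate cultures, so p-values measure only library-to-library spread, and that spread may be technical. The libraries held 31119105 to 52890140 counts with NETs and 43923391 to 64431811 counts in control medium.

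ErbB receptors are tyrosine kinases of the cell surface that pair up when a ligand binds and then feed the RAS-ERK and PI3K-AKT pathways. EGFR binds EGF, TGF-alpha, amphiregulin, epiregulin, betacellulin, epigen and HB-EGF. ERBB3 binds neuregulins but has little kinase activity of its own, and ERBB2 has no known ligand and serves as the preferred partner of the others. The ligands are made as membrane-anchored precursors that ADAM proteases release. In the mammary gland amphiregulin is known for its part in duct growth, and ERBB2 for its amplification in a class of human breast cancers.

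Epithelial markers were read in both media. All 10 were tested, of which 3 were called higher and 4 lower (70.0% called, against 38.9% of all genes tested). Their summed level was 5583 to 5801 CPM (counts scaled to the size of the library) with NETs and 5062 to 5412 CPM in control medium. The claudin gene Cldn4 was 2.09-fold higher with NETs, while Elf3, the gene of an epithelial transcription factor, was 2.37-fold lower, at 33.8 ± 2.24 CPM with NETs and 80.0 ± 1.85 CPM in control medium (SD, n = 3 each). Neutrophil markers stood near 0. Of 15, 7 had no count in any library (Elane, Ctsg, Ngp, Camp, Csf3r, Mmp8 and Retnlg), and the 15 summed to 3.06 to 3.41 CPM with NETs and 1.76 to 2.28 CPM in control medium, with 1 of the 2 tested, S100a8, called higher. Macrophage markers summed to 112 to 119 CPM with NETs and 56.3 to 61.9 CPM in control medium. Csf1r made most of that difference, at 80.2 ± 5.30 CPM with NETs and 24.1 ± 1.43 CPM in control medium (SD, n = 3 each). Of the other 3 tested, Mrc1 was called 2.63-fold lower at a level near 1 CPM or below, and Cd68 and Cd14 were not called, while Adgre1 and C1qb had no count. Fibroblast markers summed to 59.3 to 68.0 CPM with NETs and 42.8 to 48.7 CPM in control medium, with 3 of 8 (Dcn, Lum and Thy1) at 0. Of the 2 tested, Col1a1 was called higher, at 13.4 ± 2.48 CPM with NETs and 1.18 ± 0.129 CPM in control medium, and Pdgfra was not called (SD, n = 3 each). The 5 endothelial markers summed to 14.2 to 16.9 CPM with NETs and 12.3 to 14.2 CPM in control medium, and the 1 tested, Cdh5, was called higher. The part of these genes in the results below was not tested.

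With NETs the cells carried about double the Egfr messenger RNA and less of Erbb3, of the ligand genes Tgfa, Btc and Areg and of the inhibitor gene Errfi1, while Erbb2, Hbegf and Nrg1 did not pass the test. Of the 9 tested genes 1 was called higher and 5 were called lower by the quasi-likelihood test of edgeR at an adjusted p of 0.05. Of all 13956 genes tested 38.9% were called, 20.2% as higher and 18.7% as lower. The CPM of the groups did not overlap at 6 of the 9 genes, against 49.0% of all genes tested. The median log2 fold change of the 9 was -0.23, against -0.0039 over all genes tested. In bulk RNA, fewer cells that express a gene and less of its RNA per cell cannot be told apart.

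**Figure D1:**
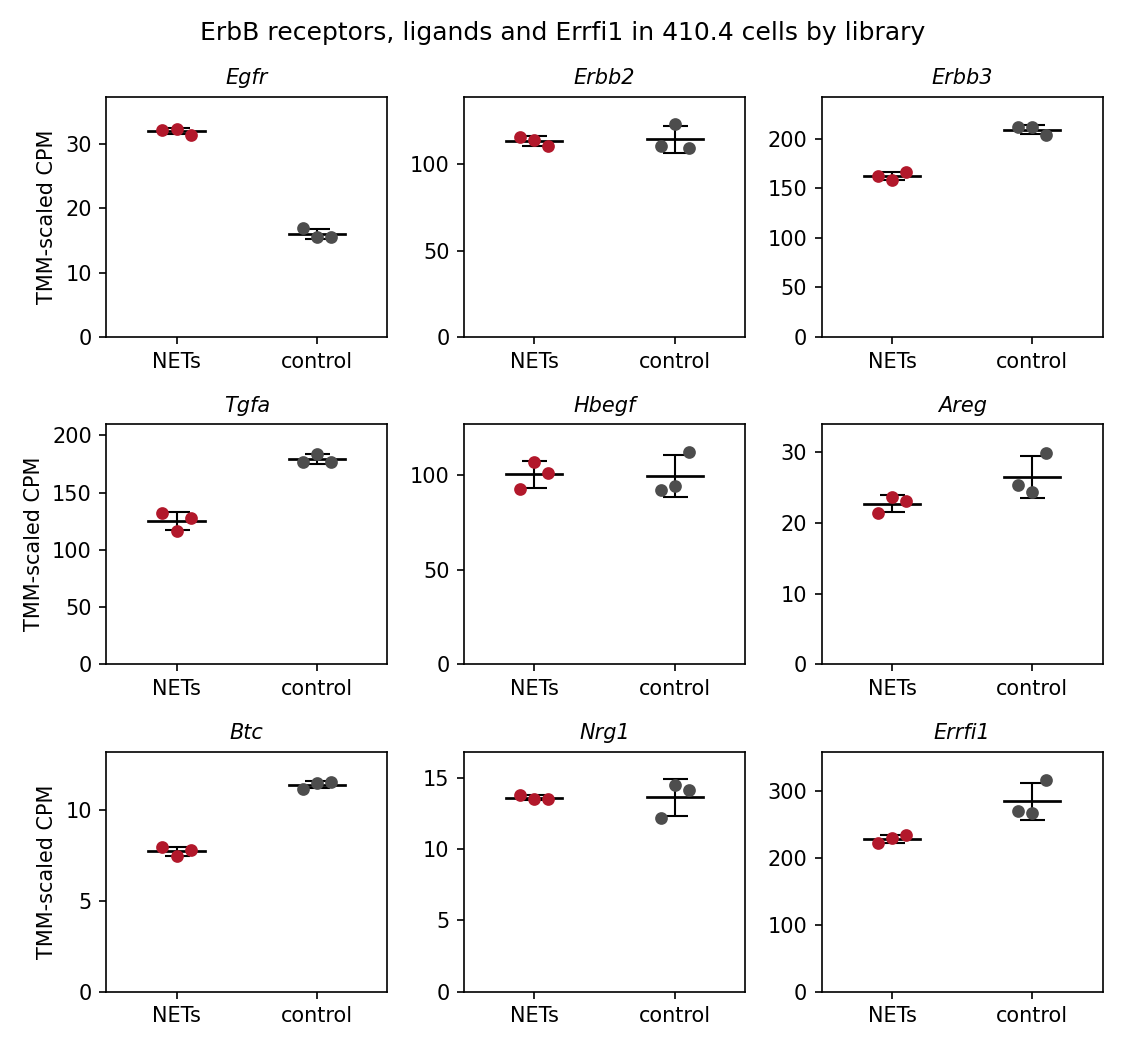
TMM-scaled CPM (vertical axis, from 0) of the 9 tested genes in each library, with NETs at the left and control medium at the right of each panel. Points are the 3 libraries of a group, the long bar is their mean and the whiskers are 1 SD. Egfr lies between 31.5 and 32.4 CPM with NETs, above the 15.5 to 17.0 CPM of control medium, and Tgfa, Btc and Erbb3 lie below their control values.

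Among the receptors, Egfr encodes the EGF receptor itself. It was read at 1444, 976 and 1624 counts with NETs and at 1130, 700 and 858 counts in control medium, or 32.2, 32.4 and 31.5 CPM with NETs and 17.0, 15.5 and 15.6 CPM in control medium. All 3 NET libraries lay within a narrow band, well above every control library. Egfr rose 2.00-fold (log2 fold change 0.998, 95% interval 0.85 to 1.14, edgeR adjusted p = 3.99e-09), and under all 15 alternatives of scaling, filter, tool and left-out library it stayed called, between 0.93 and 1.04.

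Erbb3, the neuregulin receptor, moved the other way. It stood at 162, 158 and 167 CPM with NETs and at 211, 212 and 204 CPM in control medium. The groups were apart by more than their own width. Erbb3 was 1.29-fold lower (log2 fold change -0.36, 95% interval -0.46 to -0.27, edgeR adjusted p = 7.75e-06).

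Erbb2, the ligandless partner receptor, had 116, 114 and 110.3 CPM with NETs and 111, 123 and 109 CPM in control medium. The NET libraries lay inside the range of the control libraries. The log2 fold change was -0.013 with a 95% interval of -0.13 to 0.10 (edgeR adjusted p = 0.881). Erbb2 shares exon bases with Mien1 on the opposite strand, and no source used here says whether the counting used the strand. Tgfa and Ereg of the set likewise share exon bases with opposite-strand genes, Gm43917 and Gm19610. Gm43917 had no count in any library, and Gm19610 had at most 2 counts in any library. Mien1 had 15.8 ± 2.29 CPM with NETs and 19.5 ± 2.19 CPM in control medium (SD, n = 3 each, edgeR adjusted p = 0.0350), with overlapping groups, and its call was lost without NETs replicate 2, NETs replicate 3, control replicate 1 or control replicate 2 (log2 fold changes -0.22, -0.26, -0.27 and -0.24). Per exon length Mien1 stood at 21.2 ± 3.06 RPKM (counts per kilobase of exon, scaled as CPM) with NETs and 26.1 ± 2.93 RPKM in control medium, near the level of Erbb2 given below.

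Because the 3 receptors shared each library, their ratios are free of the library scaling. In RPKM, Egfr stood at 0.128, 0.131 and 0.131 of the Erbb2 level with NETs and at 0.0707, 0.0577 and 0.0656 in control medium. This ratio was 2.02-fold higher with NETs, with no overlap (exact two-sided permutation test, p = 0.1, the smallest that 3 against 3 libraries can give). Erbb3 stood at 1.22, 1.20 and 1.31 times the Erbb2 level with NETs and at 1.66, 1.49 and 1.62 times in control medium, so this ratio was 1.28-fold lower with NETs (same exact test, p = 0.1).

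**Figure D2:**
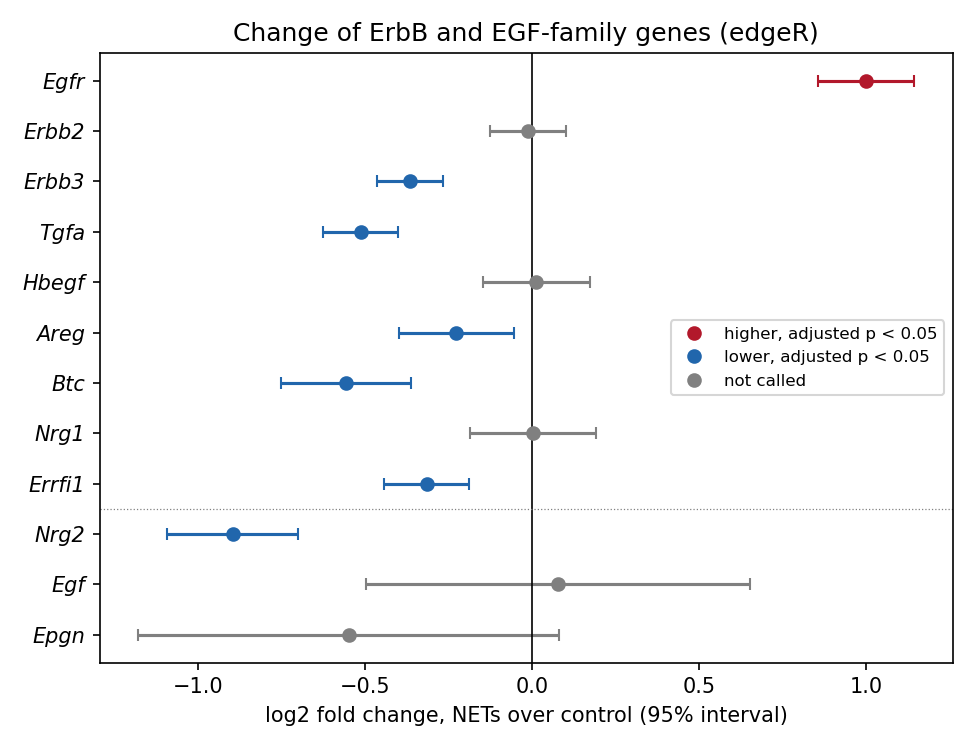
Log2 fold change of NETs over control (horizontal axis) with its 95% interval from the edgeR fit for the 9 tested genes and, under the dotted line, 3 further genes of the family. Egfr alone of these 12 lies wholly on the positive side, at 0.998, while Nrg2, at -0.90, lies farthest to the negative side among the called genes.

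The ligands of EGFR were lower or did not pass. Tgfa, which encodes TGF-alpha, had 132, 117 and 127 CPM with NETs and 176, 184 and 177 CPM in control medium. Even the highest NET library lay well under the lowest control library. Tgfa was 1.43-fold lower (log2 fold change -0.51, 95% interval -0.63 to -0.40, edgeR adjusted p = 6.53e-07), and under the alternatives it ranged from -0.58 to -0.46 and stayed called.

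Btc, the betacellulin gene, was expressed at a low level of 7.97, 7.47 and 7.81 CPM with NETs and 11.2, 11.5 and 11.6 CPM in control medium. Libraries of a group differed by under 1 CPM, and the groups did not overlap. Btc was 1.47-fold lower (log2 fold change -0.56, 95% interval -0.75 to -0.36, edgeR adjusted p = 0.000123), the largest fall among the 9 genes.

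Areg, the amphiregulin gene, had 21.4, 23.6 and 23.0 CPM with NETs and 25.3, 24.3 and 29.8 CPM in control medium. The groups did not overlap, but they came close, and control replicate 3 stood above the rest. The log2 fold change was -0.23 (95% interval -0.40 to -0.056, edgeR adjusted p = 0.0347). The call was lost without NETs replicate 1 (-0.19, adjusted p = 0.111), NETs replicate 3 (-0.24, adjusted p = 0.0794) or control replicate 3 (-0.13, adjusted p = 0.192).

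Hbegf, the gene of heparin-binding EGF-like growth factor, had 93.0, 107 and 101 CPM with NETs and 92.3, 94.1 and 112 CPM in control medium. The groups overlapped over most of their range. The log2 fold change was 0.013 with a 95% interval of -0.15 to 0.17 (edgeR adjusted p = 0.914). Its sign turned with upper-quartile factors, with library size alone and without some libraries.

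Ereg, the epiregulin gene, was hardly read: 2 counts in NETs replicate 1 and 0 in the other 5 libraries. A count of 0 allows up to 0.116 to 0.199 CPM with NETs and 0.0902 to 0.133 CPM in control medium, counting 3 fragments as 6 counts because mates of a pair appear to have been counted apart, and these limits cover counting error only. No change of Ereg could be read at this depth.

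Nrg1, the neuregulin gene whose product binds ERBB3, had 13.8, 13.5 and 13.5 CPM with NETs and 12.1, 14.5 and 14.2 CPM in control medium. The control libraries spread to both sides of the NET libraries. The log2 fold change was 0.0015 with a 95% interval of -0.19 to 0.19 (edgeR adjusted p = 0.993), and its sign turned under several alternatives.

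Errfi1 encodes MIG6, which binds the kinase domain of activated ErbB receptors and blocks it, and its transcription is known to follow receptor signalling. It stood at 222, 229 and 233 CPM with NETs and at 269.6, 267 and 315 CPM in control medium. The NET libraries lay close together below all control libraries, of which replicate 3 was the highest. Errfi1 was 1.24-fold lower (log2 fold change -0.32, 95% interval -0.44 to -0.19, edgeR adjusted p = 0.000538), and without control replicate 3 the log2 fold change was -0.23, still called.

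Set against exon length, the 9 genes spanned a wide range of levels. The length is the summed exon length of a gene, not that of the expressed transcript, and the order between genes rests on it. With NETs Errfi1 was highest at 63.7 ± 1.65 RPKM, followed by Erbb3 at 27.0 ± 0.695 RPKM (SD, n = 3 here and below). Then came Erbb2 (21.8 ± 0.529 RPKM), Hbegf (20.8 ± 1.48 RPKM), Tgfa (19.3 ± 1.25 RPKM) and Areg (18.7 ± 0.968 RPKM), and neighbours among these 4 overlapped in their libraries. Egfr followed at 2.83 ± 0.0435 RPKM, Btc at 1.71 ± 0.0558 RPKM and Nrg1 at 0.880 ± 0.0101 RPKM, with no overlap between these neighbours.

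In control medium the order differed in the middle and at the low end. Errfi1 (79.3 ± 7.62 RPKM) and Erbb3 (34.8 ± 0.783 RPKM) again came first, and Tgfa at 27.6 ± 0.652 RPKM stood next, clear of Erbb2 (22.0 ± 1.51 RPKM), Areg (21.8 ± 2.43 RPKM) and Hbegf (20.6 ± 2.29 RPKM), whose libraries overlapped. Btc (2.53 ± 0.0432 RPKM) stood above Egfr (1.41 ± 0.0744 RPKM), the reverse of their order with NETs, and Nrg1 was last at 0.882 ± 0.0827 RPKM. Per exon length the EGF receptor transcript was thus among the scarce ones of the set in both media. In CPM, without the length, Egfr stood above Btc in both (32.0 against 7.75 with NETs, 16.0 against 11.4 in control medium).

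**Figure D3:**
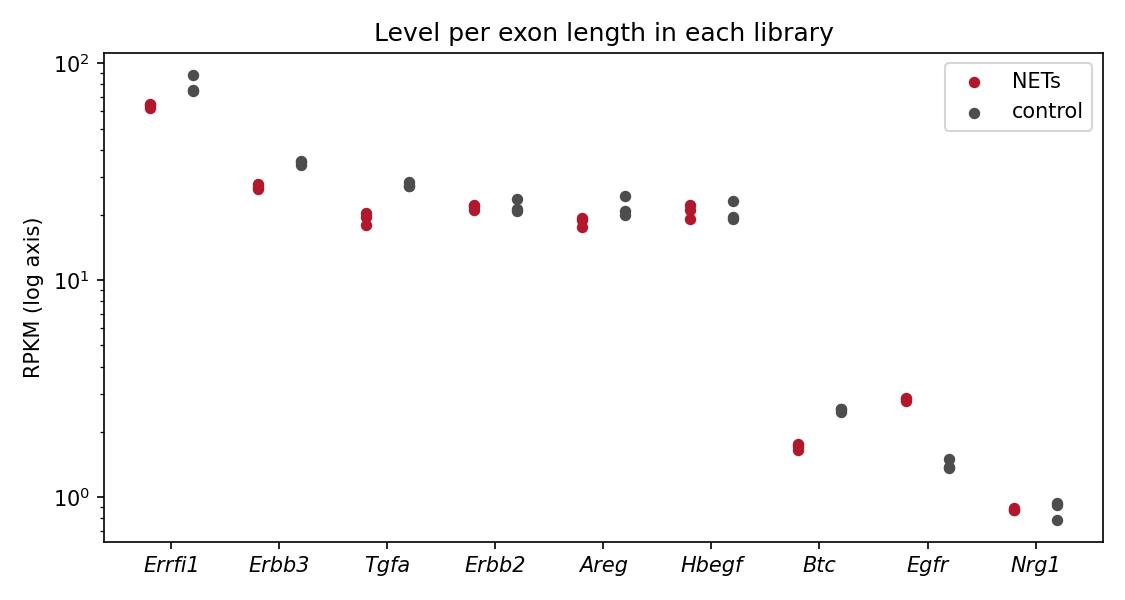
Level per exon length (RPKM, log axis) of the 9 tested genes in each library, with NETs left of control for each gene, ordered by the control mean. Per exon length Egfr and Btc trade places between the media. Egfr averages 2.83 RPKM and Btc 1.71 RPKM with NETs, against 1.41 and 2.53 RPKM in control medium. In CPM Egfr is above Btc in both media.

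The messenger RNA of the 5 EGFR ligands of the set was summed in RPKM. Egf and the epigen gene Epgn, each near 1 CPM, are not among them. The sum came to 59.0, 61.2 and 61.3 with NETs and to 69.6, 70.4 and 77.7 in control medium. The sum was 1.20-fold lower with NETs, with no overlap (log2 difference -0.26, exact two-sided permutation test, p = 0.1, the smallest possible). In the NET libraries the share of Tgfa in this sum was smaller and that of Hbegf larger, with no overlap between the groups and no test made. A share also moves with the other ligands of the sum. The level of Hbegf itself, 20.8 RPKM with NETs and 20.6 RPKM in control medium, overlapped between the groups and was not called. Tgfa made up 32.0 ± 2.62% with NETs and 38.2 ± 2.68% in control medium, and Hbegf 34.4 ± 1.81% with NETs and 28.3 ± 1.37% in control medium (SD, n = 3 each). Areg held 30.8 ± 0.976% with NETs and 30.0 ± 1.60% in control medium, and Btc 2.84 ± 0.145% with NETs and 3.49 ± 0.172% in control medium. These shares rest on the summed exon lengths, such as 1215 bases for Areg and 6490 bases for Tgfa. In CPM Areg stood far below Tgfa, at 22.7 against 125 with NETs and 26.5 against 179 in control medium.

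Apart from Nrg2, the remaining genes of the family were scarce. Nrg2, a further neuregulin gene, had 7.34, 8.004 and 8.51 CPM with NETs and 15.0, 15.4 and 14.1 CPM in control medium. Its control libraries were all well above the NET libraries. Nrg2 fell by 0.90 on the log2 scale (95% interval -1.09 to -0.70, edgeR adjusted p = 7.27e-07), a larger fall than that of any of the 9 tested genes of the set, and stayed called under each alternative. Egf had 1.03 ± 0.143 CPM with NETs and 0.982 ± 0.197 CPM in control medium (edgeR adjusted p = 0.854), and Epgn, the epigen gene, 0.782 ± 0.228 CPM with NETs and 1.13 ± 0.214 CPM in control medium (log2 fold change -0.55, edgeR adjusted p = 0.161; SD, n = 3 each). Erbb4, the fourth receptor, and Nrg3 had no count in any library, while Nrg4 had at most 6 counts and Tdgf1, the Cripto gene, at most 2 counts in any library.

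Of these genes 4 lie side by side. In the coordinates of the deposited table Epgn (91175323 to 91183074), Ereg (91222481 to 91241505), Areg (91287458 to 91296291) and Btc (91505120 to 91550853) share 376 kb of chromosome 5, where 3 of 7 listed genes were tested, all of the family. Areg and Btc, both called lower, are 2 of these, and Epgn, which did not pass, is the other. Egfr (16702203 to 16868158) and Erbb2 (98303296 to 98328542) lie far apart on chromosome 11, Erbb3 spans 128403392 to 128425521 of chromosome 10, Tgfa 86172205 to 86252701 of chromosome 6 and Errfi1 150938376 to 150953349 of chromosome 4. Exons and introns are both included in these spans. They differ from the RefSeq positions in GRCm38.p6 (Egfr starts at 16752203 there), although the submitters' processing notes name mm10, so the build of the table is not settled here.

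Promoters are shown for Egfr, the gene that rose, and for the called EGFR ligand genes Tgfa, Areg and Btc, from 250 bases before to 50 bases after a transcript start. That start is the start of the RefSeq gene for Egfr, Areg and Btc, but lies 184 bases inside it for Tgfa, whose window reaches 66 bases before the gene. They come from RefSeq (GRCm38.p6), where 6 of the 10 symbols matched, the other 4 being Erbb3, Ereg, Hbegf and Nrg1. Capitals mark matches on either strand to the GC box GGGCGG or the TATA box TATAAA. The AP-1 motif TGANTCA and the TEAD motif GGAATG were searched as well.
Egfr, chr11:16751953-16752252, plus strand: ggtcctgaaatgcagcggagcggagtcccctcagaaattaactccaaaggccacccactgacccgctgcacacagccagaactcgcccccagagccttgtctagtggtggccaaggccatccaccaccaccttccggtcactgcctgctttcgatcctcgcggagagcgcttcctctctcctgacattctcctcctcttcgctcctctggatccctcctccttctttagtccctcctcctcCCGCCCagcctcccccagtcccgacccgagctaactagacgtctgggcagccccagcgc
Tgfa, chr6:86194972-86195271, plus strand: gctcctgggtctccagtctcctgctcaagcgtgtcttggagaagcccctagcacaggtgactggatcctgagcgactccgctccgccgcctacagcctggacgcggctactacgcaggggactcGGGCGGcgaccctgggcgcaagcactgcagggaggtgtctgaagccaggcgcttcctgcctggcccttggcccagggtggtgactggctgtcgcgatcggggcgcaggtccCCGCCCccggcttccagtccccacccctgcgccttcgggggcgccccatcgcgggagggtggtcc
Areg, chr5:91139349-91139648, plus strand: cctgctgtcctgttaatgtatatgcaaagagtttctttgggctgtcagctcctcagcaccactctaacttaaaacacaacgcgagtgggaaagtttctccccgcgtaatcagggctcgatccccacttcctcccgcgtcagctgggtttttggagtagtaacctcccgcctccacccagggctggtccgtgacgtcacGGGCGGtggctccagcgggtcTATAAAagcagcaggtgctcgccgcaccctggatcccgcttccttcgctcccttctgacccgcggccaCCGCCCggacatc
Btc, chr5:91402945-91403244, minus strand: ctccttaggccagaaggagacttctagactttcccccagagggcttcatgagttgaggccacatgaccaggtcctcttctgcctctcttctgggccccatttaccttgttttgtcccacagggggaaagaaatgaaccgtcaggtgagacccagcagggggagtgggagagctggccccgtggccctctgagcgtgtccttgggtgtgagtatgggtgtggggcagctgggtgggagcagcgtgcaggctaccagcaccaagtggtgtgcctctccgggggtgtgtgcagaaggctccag

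The promoters of the lower ligand genes did not look alike. Areg held a TATA box that begins 31 bases upstream of the start and 2 GC boxes, Tgfa held 2 GC boxes, and Btc held none of the 4 motifs. Egfr held 1 GC box, beginning 9 bases upstream of the start, and no TATA box match. Among 32851 promoters of the same length 35.7% hold the GC box, 13.6% the TATA box, 7.81% the AP-1 motif and 14.7% the TEAD motif. The AP-1 letters were in none of the 4 windows and neither were the TEAD letters, which says nothing about binding elsewhere. The TEAD letters did occur in matched promoters that are not shown. In Erbb2 they began 88 bases upstream of the start. In Errfi1 they began 65 bases upstream in the window from 150853546 of chromosome 4, but were absent from its window from 150854820. CpG pairs numbered 15 in Egfr, 24 in Tgfa, 21 in Areg and 5 in Btc, against a median of 7 over all promoters.

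Genes whose products free the ligands moved both ways. Of 12 genes of ligand shedding 10 were tested, 3 rose and 3 fell (60.0% called, against 38.9% of all genes), with a median log2 fold change of -0.067. Adam17 encodes the main sheddase of TGF-alpha, amphiregulin and HB-EGF, and it fell to 151 ± 5.96 CPM with NETs, against 189 ± 5.98 CPM in control medium (log2 fold change -0.33, edgeR adjusted p = 4.34e-05). Adam10, the main sheddase of betacellulin and EGF, rose to 279 ± 6.19 CPM with NETs, against 234 ± 7.20 CPM in control medium (log2 fold change 0.25, edgeR adjusted p = 0.000374). Adam12, a protease that can cleave HB-EGF, rose 3.04-fold to 127 ± 4.98 CPM with NETs, against 41.8 ± 2.35 CPM in control medium (edgeR adjusted p = 7.44e-13; SD, n = 3 each). Adam9 fell by 0.19 on the log2 scale, and Bace1, whose product processes neuregulin 1, fell by 0.24. Frmd8, whose product stabilises the iRhom-ADAM17 complex, rose by 0.21, a call lost with library size alone and without NETs replicate 1, control replicate 1 or control replicate 3 (0.14, 0.18, 0.21 and 0.14). With library size alone 2 of these genes rose and 3 fell.

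Among signal carriers next to the receptors the share of called genes was near that of all genes. Of 30 tested genes 6 rose and 7 fell (43.3% called, against 38.9% of all genes), with called log2 fold changes between -0.41 and 0.38 and a median of 0.0094. Map2k1, the MEK1 gene, rose by 0.38, Stat3 by 0.31 and the adaptor gene Nck1 by 0.29 on the log2 scale. The EGFR substrate gene Eps8 fell by 0.40, the RAS exchange factor gene Sos2 by 0.41 and the kinase gene Akt2 by 0.38 (largest edgeR adjusted p of these 6 = 0.00136). With library size alone 4 rose and 8 fell.

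Receptor inhibitors and traffic genes moved both ways. Of 23 tested genes 7 rose and 7 fell (60.9% called, against 38.9% of all genes), with a median log2 fold change of -0.0099, 5 rose and 8 fell with upper-quartile factors, and 2 rose and 10 fell with library size alone. Lrig1, a transmembrane inhibitor that lowers ErbB receptors, fell to 414 ± 6.29 CPM with NETs, against 530.0 ± 20.9 CPM in control medium (log2 fold change -0.36, edgeR adjusted p = 1.33e-05). Cblb, a ubiquitin ligase that marks EGFR for breakdown, rose to 55.7 ± 1.14 CPM with NETs, against 42.8 ± 1.31 CPM in control medium (log2 fold change 0.38, edgeR adjusted p = 2.69e-05; SD, n = 3 each). The phosphatase gene Ptpn18 was 2.20-fold lower at a low level, and Rab25, a recycling GTPase gene, fell by 0.43 on the log2 scale. Hgs and Stam, which sort ubiquitinated receptors to lysosomes, rose by 0.20 and 0.19, the call of Stam being lost with library size alone (0.13). Without NETs replicate 3 the list had 4 rises and 4 falls.

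Output genes of the ERK pathway were mostly lower. Of 18 tested genes 2 rose and 11 fell (72.2% called, against 38.9% of all genes), with a median log2 fold change of -0.37. Dusp6, the ERK phosphatase gene and a common readout of the pathway, had 113, 122 and 129.8 CPM with NETs and 249, 267 and 273 CPM in control medium. It was 2.16-fold lower, with a wide gap between the groups (edgeR adjusted p = 8.94e-11). Spry1, a feedback inhibitor of receptor tyrosine kinase signalling, had 26.4, 28.4 and 30.4 CPM with NETs and 54.7, 61.0 and 58.0 CPM in control medium. It was 2.03-fold lower (edgeR adjusted p = 1.77e-09), and Ccnd1, the cyclin D1 gene, 1.52-fold lower. The rises of Dusp4 and Spred2 were small (log2 fold changes 0.17 and 0.15). Both calls were lost with library size alone (0.097 and 0.087), without NETs replicate 3 (0.15 and 0.13) and without control replicate 1 (0.14 and 0.16), and that of Spred2 also without control replicate 2 (0.13), so that the list then had 0 or 1 rises. These are transcript levels, and phosphorylation of receptors or ERK was not measured.

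**Figure D4:**
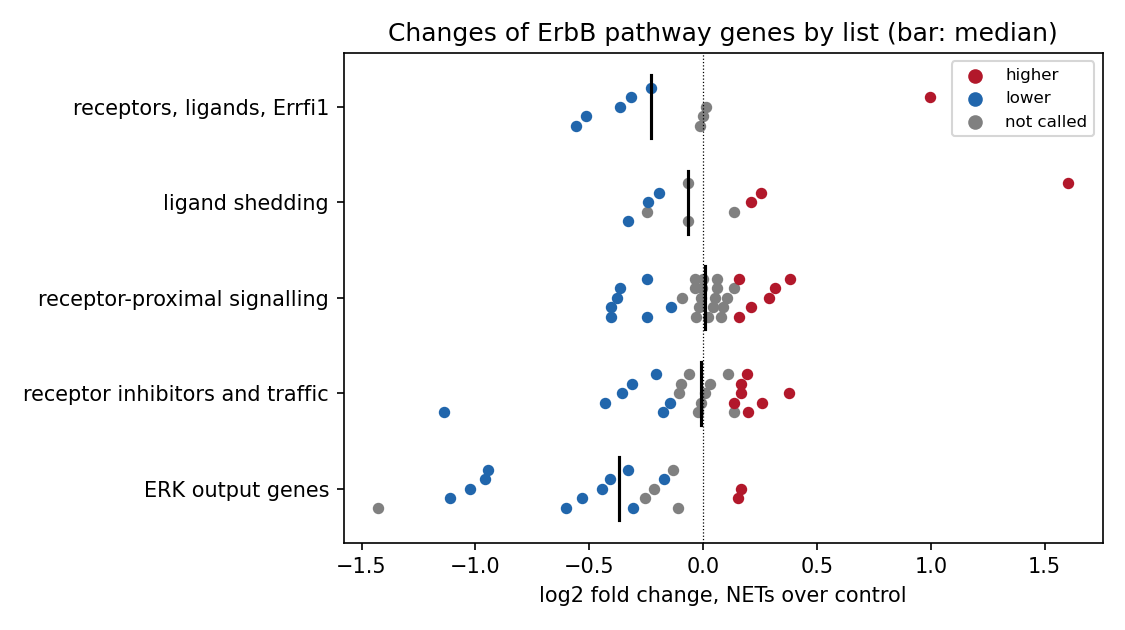
Log2 fold change of NETs over control (horizontal axis) of each tested gene in the set itself and the lists of ligand shedding, receptor-proximal signalling, receptor inhibitors and traffic, and ERK output, 1 point a gene, coloured by its edgeR call, with the list median as a black bar. The ERK output genes have the lowest median of the 5 groups drawn, -0.37, and the receptor-proximal genes gather around 0.

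By pattern over the 6 libraries, the genes most like Egfr among 9805 candidates of at least 5 CPM were Igsf11, Trp53inp2 and Stab1 (Pearson r of log2 CPM = 0.999, 0.999 and 0.998), and those most like Btc were Tm7sf2, Syne3 and Arrdc4 (r = 0.999 in each case). With 2 groups such an r mainly restates the difference between media, and 1051 genes had an r above 0.95 with Egfr and 860 with Btc.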

How the data were processed

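Per the submitters' processing notes, the authors aligned with STAR 2.7.10a and counted with featureCounts of Subread 2.0.3 on mm10. The deposited values are raw counts per gene symbol, used as deposited. Between 74.8% and 78.4% of counts from 1 to 20 were even, where single reads would give about 50%. The depth was 31119105 to 64431811 counts per library.

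Low counts were removed by filterByExpr (minimum count 10), libraries were scaled by TMM, and the media were compared with edgeR 4.0.16 in R 4.3.3 (glmQLFit with robust estimation, glmQLFTest), adjusted by Benjamini-Hochberg over all 13956 tested genes and called at 0.05. Intervals came from the fold change, its F statistic and the degrees of freedom of the fit. CPM and RPKM were computed here from the deposited counts and exon lengths. The test was tried on simulated data with known changes in far fewer genes than were called here, and no result rests on it. Replicates of a group differed by 8.98 to 22.9 times what independent counts would give (chi-square over its degrees of freedom). Mates counted apart would raise this ratio, and it does not tell whether the replicates were separate cultures. Each library counted once.

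The members and the gene lists were chosen with earlier results of these data known. Besides the members, the text names every other family gene listed, up to 3 called genes with the smallest p in each direction per list, and the 3 genes most like Egfr and Btc (log2 of CPM plus 0.5). Single marker genes and Mien1 were named after their values were seen. The symbol Cripto was not in the table, and its older name Tdgf1 was used. The alternatives were RLE and upper-quartile factors, scaling to library size alone, testing without the low-count filter, keeping genes with 1 CPM or more in 3 or more libraries, DESeq2 1.42.0, limma-voom (limma 3.58.1), halved counts, a replicate block and leaving out each library.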

Additional observations from a re-analysis of the deposited data

How the results depend on the processing

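Egfr, Erbb3, Tgfa, Btc and Errfi1 kept their direction and their call under all 15 alternatives, and Areg under 12, losing it only without NETs replicate 1, NETs replicate 3 or control replicate 3 (log2 fold changes of -0.29 to -0.13 over all alternatives). The 3 genes that did not pass had values near 0 whose sign turned, and the cause was not tested. Erbb2 was at 0.0046 without NETs replicate 3 and 0.043 without control replicate 2 (-0.045 to 0.043 over the left-out libraries). Hbegf was at -0.010 with upper-quartile factors, -0.055 with library size alone, -0.034 without NETs replicate 2, -0.041 without control replicate 1 and -0.028 without control replicate 2 (-0.041 to 0.11 over the left-out libraries). Nrg1 was at -0.022 with upper-quartile factors, -0.066 with library size alone, -0.010 with no low-count filter, -0.0099 without NETs replicate 1 and -0.078 without control replicate 1 (-0.078 to 0.047 over the left-out libraries). None of these values was called. The count of receptor inhibitors and traffic genes called, 14, was 8 to 12 over the left-out libraries. Over all genes 2825 rose and 2605 fell, but 2106 rose and 3763 fell with library size alone. The receptor ratios and the summed ligand level kept their direction under each alternative, with no p below 0.1. Same-numbered libraries did not deviate together in all 3 pairs (r = 0.34, -0.17 and 0.19), and not every library correlated best with its own number. With 3 libraries a group these r depend on each other, so whether the numbers pair the samples is not settled here. With the replicate block 5682 genes were called against 5430, 6 of the 9 members as before and 51 against 47 genes of the 4 pathway lists and the further family genes, and the exact sign-flip permutation test over pairs gave p = 0.25 for the ratios and the ligand sum, the smallest possible. The lowest depth, 31119105 counts, limits what can be said of Ereg, Erbb4, Nrg3 and Nrg4.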
